A study of Homo sapiens with 3 samples.

Results

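The 50 genes described here encode the machinery that copies DNA in S phase. They were taken from a list that was chosen with earlier results of these data known. It comprised licensing factors, the replicative helicase with its activators, the polymerases, the sliding clamp with its loader, and proteins of the fork and the lagging strand. They are 50 of the 62663 genes annotated by GENCODE release 44 on the main chromosomes, and all of them belong to the 20033 protein-coding genes. Each gene was represented by the ZBTB11 peak with the largest −log10 p whose interval lay within 3 kb of any of its annotated transcription start sites (TSSs).

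ChIP-seq was performed in untreated wild-type NCI-H1299 cells, a human non-small cell lung carcinoma line that the paper describes as p53-null, fixed with formaldehyde. There was 1 library precipitated with an antibody against the zinc finger protein ZBTB11, 1 with normal IgG as a control for nonspecific binding, and 1 Input library, which was not analysed here. The ZBTB11 peak list held 348392 peaks and the IgG list 27877, and the IgG list reached only chromosomes 1, 10, 21 and Y. With 1 library per antibody there was no replicate, so no test across samples could be made. Intervals on fragments cover counting error only. Intervals on shares treat the listed genes as independent draws, which a chosen list is not, so they serve as a rough guide. Neither kind covers variation between libraries.

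Replication origins are licensed in G1, when the origin recognition complex, CDC6 and CDT1 load the ring-shaped MCM2 to MCM7 helicase onto DNA. In S phase the kinase DBF4-CDC7 and further factors recruit CDC45 and GINS to the ring, which turns it into an active helicase, and polymerases α, δ and ε then copy the strands with the clamp PCNA, which is placed by the RFC loader. Many of these genes are transcribed as cells enter S phase, under E2F factors, which recognise TTTCGCGC or TTTGGCGC and close variants.

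The sequences shown first carry the short words by which the peaks of these genes were compared. The word searched at peak summits was C[C/A]GGAAG, that is CCGGAAG or CAGGAAG, on either strand, and it is called the consensus below. The paper derived it de novo from high peaks of the same ZBTB11 ChIP-seq. Its share at summits, also beside windows further away or at stronger peaks, is therefore no independent check of the word. ETS factors such as the GABP complex recognise sites of this kind. The following 29-base stretches of hg38, read 5′ to 3′ on the strand that carries the word, lie within 50 bp of the summit of the strongest ZBTB11 peak of the named gene, and the capitals mark the word.
CDC45 (chr22:19479197-19479225, plus strand): ccagaggctcaCCGGAAGtgccggacccg
FEN1 (chr11:61792582-61792610, plus strand): ccgctccgccaCCGGAAGaacacgtcggc
ORC4 (chr2:148020926-148020954, minus strand): gcgctagcgacCCGGAAGacattgtagcg
RPA3 (chr7:7640602-7640630, plus strand): gctggatgagtCCGGAAGtggagattggc
POLE4 (chr2:74959004-74959032, plus strand): tgggcgtggacCCGGAAGgcggaggaaag

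The strongest peak among the 50 genes, at RFC2, had no consensus within 50 bp of its summit. It held the shorter core CGGAAG there, as did 4 further genes whose summits lacked the consensus. These stretches are shown to set beside the first group, with CGGAAG in capitals.
RFC2 (chr7:74254460-74254487, plus strand): ccgggcgcgagCGGAAGttacgtacccg
MCM7 (chr7:100100721-100100748, plus strand): cggccgccgcgCGGAAGgacactgttta
ORC3 (chr6:87589958-87589985, plus strand): gtccacctctaCGGAAGtgcgccgcagt
MCM8 (chr20:5950529-5950556, minus strand): gggccggaaagCGGAAGcggcgtgcaac
ORC1 (chr1:52404579-52404606, plus strand): gacgcggggagCGGAAGccctttacact

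The E2F type word lay within 50 bp of the summit in 3 genes, with the word in capitals. In MCM5 both E2F type words overlap, on opposite strands, in TTTCGCGCCAAA.
TOPBP1 (chr3:133661930-133661959, plus strand): cgggaaccgacTTTCGCGCcaaccgcgcgg
MCM5 (chr22:35399930-35399959, plus strand): ccagccagaagTTTCGCGCcaaattgttcc
POLA2 (chr11:65261898-65261927, plus strand): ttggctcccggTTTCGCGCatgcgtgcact

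A ZBTB11 peak lay within 3 kb of a TSS in 50 of the 50 replication genes, beside 87.7% of protein-coding genes. Because the list goes down to weak peaks, a peak with a −log10 p of 5 or more was called strong. By this threshold 37 of the 50 genes (74%, Wilson 95% interval 60.4% to 84.1%) had a strong peak, beside 46.9% of protein-coding genes. The median −log10 p of the strongest peak was 8.58 in the replication genes (quartiles 5.01 and 42.7) and 4.54 in protein-coding genes (quartiles 2.57 and 15.6). The corresponding median number of fragments at the summit, recovered from the deposited values as described under the processing, was 14 and 9. The replication genes had a median of 8 annotated transcript starts against 5, which gave more windows in which a peak could be found. Counting 1 start per gene, that of its canonical transcript, left 35 of 50 genes with a strong peak, beside 43.4% of protein-coding genes under the same setting.

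**Figure D1:**
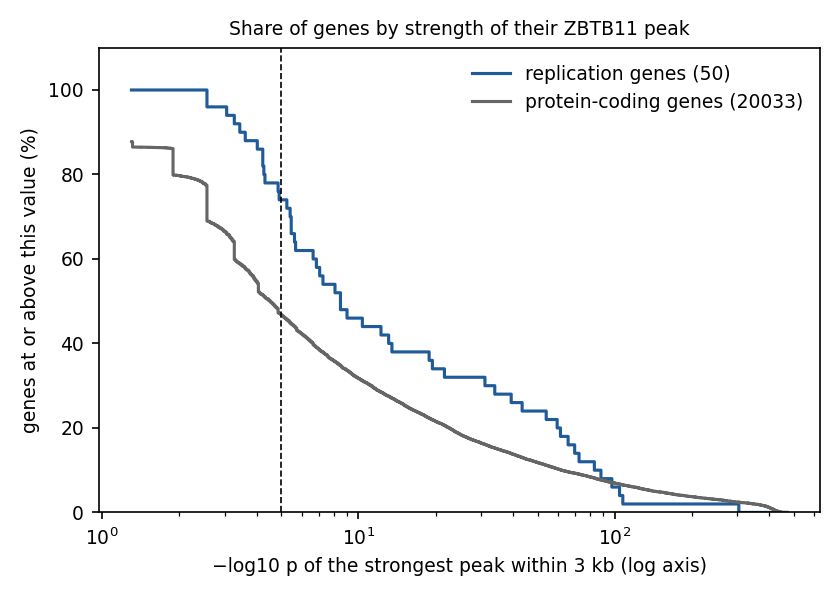
Share of genes (vertical axis, %) whose strongest ZBTB11 peak within 3 kb of a TSS reached the −log10 p on the horizontal log axis, for the 50 replication genes and all 20033 protein-coding genes. At the dashed line (−log10 p of 5) the shares were 74% and 46.9%, and the curve of the replication genes lies above the other over most of the range, crosses it just below a −log10 p of 100 and stays below it over the highest values.

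The replication genes were more frequent than protein-coding genes in the middle of the peak list, and their number at its top was too small to separate from the background. Ranked by −log10 p over the whole ZBTB11 list, 1 of the 50 genes (2%) had its peak among the first 1000 (interval 0.354% to 10.5%), beside 6.01% of protein-coding genes. Ranks 1001 to 5000 held 18 genes (36%, 24.1% to 49.9%) beside 17.8%, and ranks 5001 to 20000 held 24 (48%, 34.8% to 61.5%) beside 27.8%. Ranks 20001 to 100000 held 5 (10%) beside 19.5%, and 2 (4%) lay further down beside 16.6%, while 12.3% of protein-coding genes had no peak. The genes nearest to the threshold were GMNN, the geminin inhibitor of CDT1, just inside it, and the DNA ligase LIG1 just outside. GMNN had 12 fragments at the summit (95% Poisson interval 6.20 to 20.96), 3.53-fold enrichment and −log10 p 5.30 (chr6:24776316-24776669, in an intron 388 bp upstream of the nearest start). LIG1 had 9 (4.12 to 17.1), 3.70-fold enrichment and −log10 p 4.92 (chr19:48169973-48171236, 102 bp into the gene, in the 5′ UTR).

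**Figure D2:**
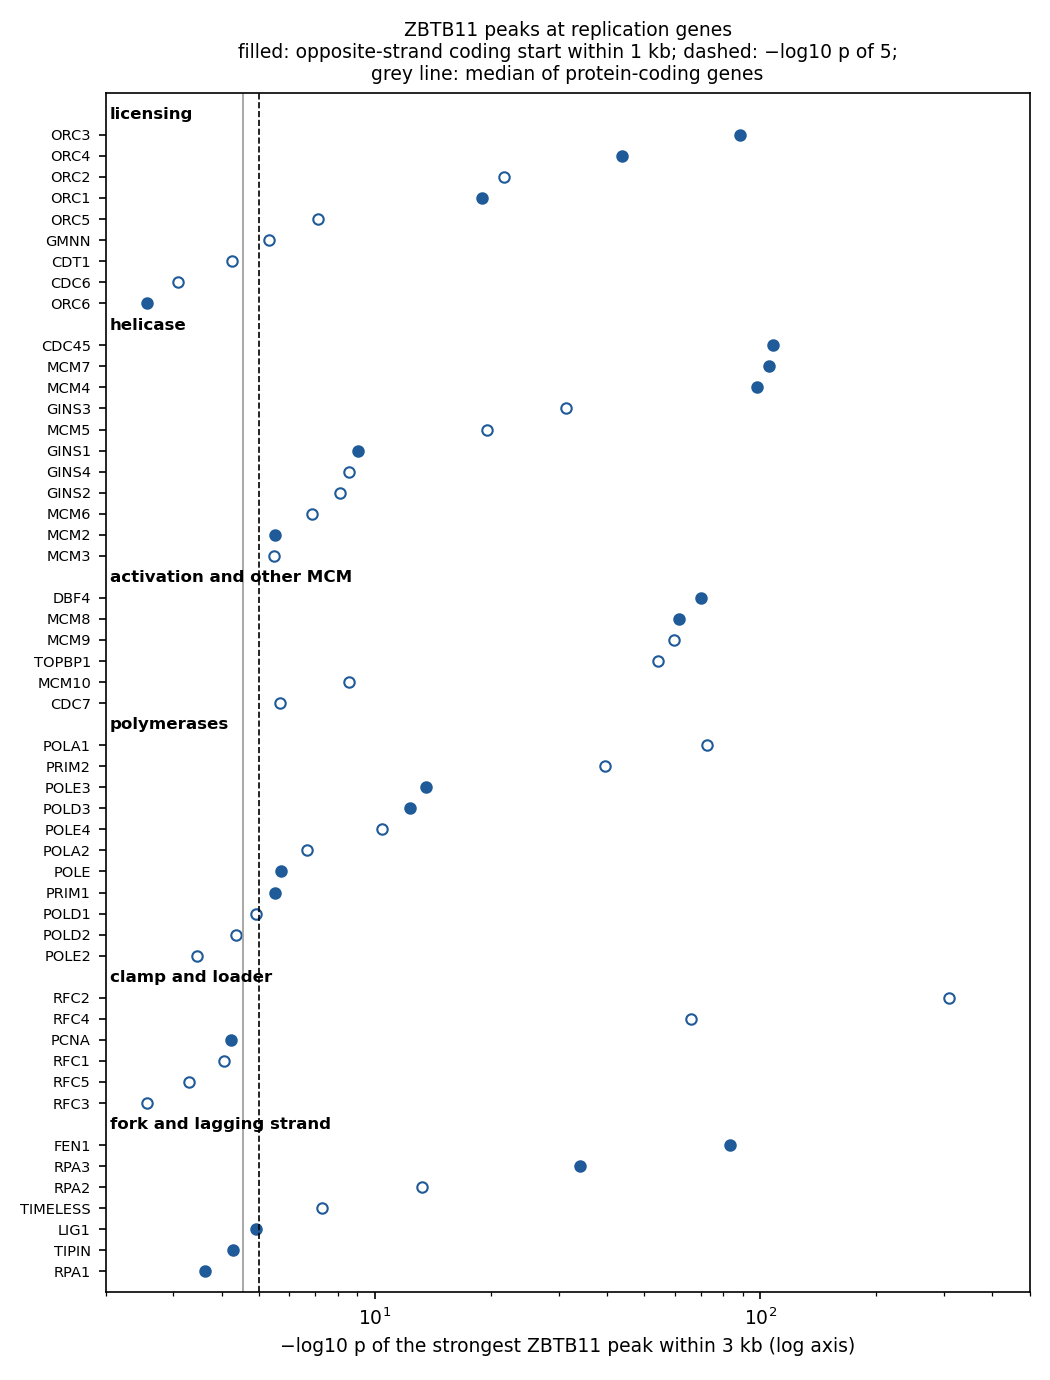
The −log10 p of the strongest ZBTB11 peak within 3 kb (horizontal log axis) for each of the 50 genes, sorted within 6 role classes; filled points have a protein-coding start on the opposite strand within 1 kb. All 11 helicase genes and all 6 activation and other MCM genes lie right of the dashed line at a −log10 p of 5, while 4 of the 6 clamp and loader genes lie left of it. The share of protein-coding genes with a −log10 p of 5 or more was 46.9%.

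Among the 9 licensing genes, which mark and prepare origins, 6 had a strong peak and the median −log10 p was 7.11. The Wilson 95% interval of this share (35.4% to 87.9%) includes the 46.9% of protein-coding genes. The strongest was ORC3, a subunit of the origin recognition complex, with 105 fragments at the summit (95% Poisson interval 85.9 to 127), 14.7-fold enrichment and −log10 p 88.6. Its peak (chr6:87589655-87590441) had its summit 74 bp upstream of the nearest ORC3 start, outside the protein-coding ORC3 transcripts. RARS2, for mitochondrial arginyl-tRNA synthetase, starts 39 bp from an ORC3 start on the opposite strand. The start nearest to the summit was that of RARS2. ORC4 (59 fragments, −log10 p 43.8), ORC2 (31 fragments, 21.7), ORC1 (30 fragments, 18.9) and ORC5 (12 fragments, 7.11) followed, so 5 of the 6 origin recognition genes were strong. ORC6 was the weakest of the class: its strongest peak (chr16:46688660-46688917) had 5 fragments (1.62 to 11.7), 2.55-fold enrichment and −log10 p 2.57. This peak lay 888 bp upstream of ORC6, nearer to the start of VPS35, but another peak within 3 kb of ORC6 had the same −log10 p. The loading factors CDC6 and CDT1 were not strong, with −log10 p 3.08 and 4.27. The CDC6 summit was 3043 bp inside the gene, in an intron, and that of CDT1 lay 177 bp downstream of a start, in a coding exon.

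All 11 helicase genes had a strong peak, with a median −log10 p of 9.05. CDC45, which joins the MCM ring to make it active, was the strongest with 130 fragments (109 to 154), 14.8-fold enrichment and −log10 p 108. Its peak (chr22:19478801-19479677) had the summit 280 bp upstream of CDC45, and the start nearest to the summit was that of UFD1, which runs the other way. MCM7 had more fragments, 173 (148 to 201), but lower enrichment, 9.17-fold, and −log10 p 105, since the local background was 18 fragments, against 7.84 at CDC45. The MCM7 summit lay in the 5′ UTR, 49 bp into the gene (chr7:100100336-100101062), and AP4M1 starts 121 bp from an MCM7 start on the opposite strand. A further strong peak within 3 kb of MCM7 had −log10 p 100.

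The 6 ring subunits differed widely among themselves although each encodes an equal part of the same hexamer. MCM4, on chromosome 8, had 144 fragments at the summit (121 to 170, 10.7-fold, −log10 p 98.2, chr8:47959945-47961115, summit in an intron 68 bp upstream of the nearest MCM4 start). PRKDC starts 7 bp from an MCM4 start on the opposite strand. MCM5 had 25 fragments (19.5). MCM6 had 13 (6.87), MCM3 11 (5.46) and MCM2 10 (5.49). The intervals of MCM4 and MCM7 do not overlap those of the other 4. MCM3 (chr6:52284320-52285053, 5.49 to 19.7 fragments, 3.76-fold) was the weakest helicase gene, with its summit in an intron 233 bp downstream of a start. The GINS genes, whose products complete the active helicase, were all strong: GINS3 had 41 fragments (−log10 p 31.3), and GINS1, GINS4 and GINS2 had 15, 12 and 16 (9.05, 8.58 and 8.12).

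The 6 genes for helicase activation and for the further MCM proteins had the highest median, 57.0, and each had a strong peak. DBF4, the activating subunit of the CDC7 kinase, was the strongest with 113 fragments (93.1 to 136), 9.10-fold enrichment and −log10 p 70.3 (chr7:87875897-87877349). Its summit lay in an intron 506 bp downstream of the start, and the peak, 1453 bp wide, also covered the start of SLC25A40. The kinase subunit CDC7 itself was the weakest of the class, with 11 fragments (5.49 to 19.7), 3.88-fold enrichment and −log10 p 5.67 (chr1:91500599-91501000, 26 bp upstream of the start). The counts of the catalytic and activating subunits thus differed beyond counting error. MCM8 and MCM9, which act together in recombination, were close to each other with 82 fragments (65.2 to 101.8, 11.5-fold, −log10 p 61.4, chr20:5950128-5951140, summit 145 bp upstream of MCM8) and 73 (57.2 to 91.8, 59.8). The start nearest to the MCM8 summit was that of TRMT6, on the opposite strand, while the MCM9 summit was nearest to MCM9. TOPBP1, a scaffold in helicase assembly and checkpoint signalling, had 65 fragments (54.2), and MCM10, needed for origin firing, had 12 (8.58).

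Of the 11 polymerase genes 8 had a strong peak, and the median −log10 p was 6.65. POLA1, the catalytic subunit of polymerase α, which starts each new strand with primase, was the strongest with 86 fragments (68.8 to 106), 14.2-fold enrichment and −log10 p 72.9 (chrX:24693618-24694450, summit 61 bp downstream of a start, in an intron). Its partner subunits were lower, with 60 fragments at PRIM2 (−log10 p 39.5), 12 at POLA2 (6.65) and 11 at PRIM1 (5.51). Of the genes of polymerase ε, the leading strand enzyme, POLE3 had 24 fragments (13.6), POLE4 14 (10.4) and the catalytic POLE 12 (5.71). POLE2 was the weakest polymerase gene, with 7 fragments (2.81 to 14.4), 2.99-fold enrichment and −log10 p 3.45 (chr14:49688346-49688603, 82 bp upstream of the start). Of polymerase δ, which copies the lagging strand, POLD3 was strong with 17 fragments (12.3), while POLD1, the catalytic subunit, and POLD2 had −log10 p 4.90 and 4.36.

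The clamp and its loader had the widest range, with 2 of 6 genes strong and a median −log10 p of 4.14. RFC2, a small subunit of the loader, had 340 fragments (305 to 378), 19.3-fold enrichment and −log10 p 308, which ranked 371 in the whole list and was the largest value of the 50 genes. Its summit (peak chr7:74254095-74254966) lay 51 bp upstream of the start, with no other protein-coding gene starting on the opposite strand within 1 kb. RFC4, another loader subunit, had 77 fragments (60.8 to 96.2), 14.2-fold enrichment and −log10 p 66.1 at a summit 9 bp into the gene, in the 5′ UTR (chr3:186805980-186806862). The remaining 3 loader genes were not strong: RFC1 (4.05), RFC5 (3.29) and RFC3 (2.57). RFC3 was the weakest of the class (chr13:33817862-33818679), with 5 fragments (1.62 to 11.7) and 2.55-fold enrichment at a summit 13 bp into the gene, in the 5′ UTR. Another peak within 3 kb of RFC3 had the same −log10 p. PCNA, the clamp itself, had 8 fragments (3.45 to 15.8) and −log10 p 4.24 at a summit 893 bp upstream, nearer to the start of CDS2.

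Of the 7 genes for the fork and the lagging strand 4 had a strong peak, and the median −log10 p was 7.27. FEN1, the nuclease that trims Okazaki fragments, was the strongest with 97 fragments (78.7 to 118), 14.97-fold enrichment and −log10 p 83.4 (chr11:61792220-61793063). The summit was 317 bp upstream of FEN1 and nearer to TMEM258, and a start of FADS2 also lay under the peak. The subunits of RPA, which coats single-stranded DNA, spread from 50 fragments at RPA3 (34.04) through 21 at RPA2 (13.2) to 7 at RPA1 (2.81 to 14.4, 3.11-fold, −log10 p 3.63, chr17:1829772-1830082), which was the weakest of the class. TIMELESS, of the fork protection complex, had 14 fragments (7.27), whereas its partner TIPIN had 10 and −log10 p 4.29. LIG1, which joins Okazaki fragments, had 9.

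In all, 13 genes were not strong, namely LIG1, POLD1, POLD2, TIPIN, CDT1, PCNA, RFC1, RPA1, POLE2, RFC5, CDC6, ORC6 and RFC3. Their values overlap by counting error with those of the genes just above the threshold. A q-value of 0.05 or less was reached by 44 of the 50 genes (88%), beside 55.3% of protein-coding genes. The 31 bases at the summit occurred once in the genome for all 50 genes.

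The promoters of replication genes were often shared with another gene. A start of another protein-coding gene lay on the opposite strand within 1 kb in 21 of the 50 genes (42%), beside 15.4% of protein-coding genes. This definition was chosen after the values were seen. With such a start, 16 of 21 replication genes (76.2%) and 76.2% of protein-coding genes had a strong peak, with median −log10 p 13.6 and 14.3. Without it, 21 of 29 replication genes (72.4%, interval 54.3% to 85.3%) had one, beside 41.6%, with medians 7.27 and 3.97. The interval of the replication genes without an opposite coding start lies above the protein-coding share, and that of the paired genes includes it; whether the arrangements differ from each other in this was not tested.

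**Figure D3:**
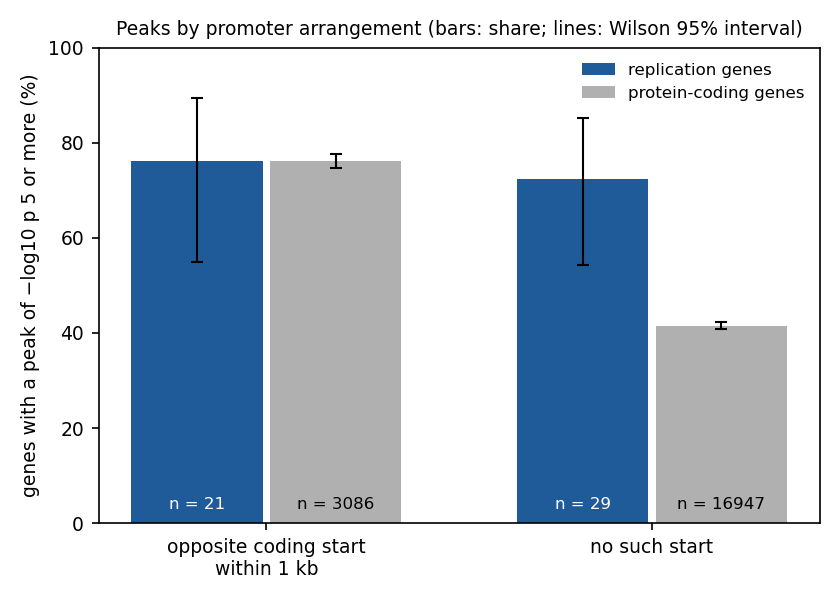
Share of genes with a ZBTB11 peak of −log10 p 5 or more (vertical axis, %) for genes with and without an opposite-strand coding start within 1 kb, with Wilson 95% intervals as lines and the number of genes in each bar. The bars with such a start are level at 76.2%, and without it the replication genes stand at 72.4% and protein-coding genes at 41.6%.

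A peak between paired genes cannot be assigned to either. The start nearest to the summit belonged to another gene in 12 of the 50 genes (24%, beside 21.2% of protein-coding genes with a peak). Among the strong ones these were 8, namely CDC45, ORC3, FEN1, MCM8, ORC4, ORC1, POLE and MCM2. Counting a peak only for the gene of the nearest start left 29 strong genes, beside 35.5% of protein-coding genes.

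Strong peaks sat close to the starts. The median distance from summit to the nearest start of the gene was 74 bp in the 37 genes and 120 bp in protein-coding genes with a strong peak, and 22 of 37 (59.5%) were within 100 bp, beside 45.6%. Beyond 3 kb from any start, a strong peak in the gene body was found in 1 of 50 genes (2%), beside 3.79%. That gene was POLA2, with 11 fragments and −log10 p 6.45 in an intron (chr11:65279753-65280360).

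The consensus lay within 50 bp of the summit in 6 of the 37 strong genes (16.2%, interval 7.65% to 31.1%), beside 25.2% of protein-coding genes with a strong peak, a share within that interval. These were CDC45, FEN1, ORC4, RPA3 and POLE4, shown above, and GINS4, whose word was CAGGAAG. In equal windows 500 bp to either side of the same summits it was found in 2 of 74 (2.70%), beside 4.33%. Of the 12 genes with −log10 p of 50 or more, 2 (16.7%, interval 4.70% to 44.8%) had it, beside 42.5% of protein-coding genes in that range. The shorter core CGGAAG, which overlaps CCGGAAG and was added after the sequences were seen, occurred in 10 of 37 windows (27.0%), beside 29.6%.

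The E2F type words, TTTCGCGC or TTTGGCGC on either strand, were found at 3 of 37 strong summits (8.11%, interval 2.80% to 21.3%), beside 0.554% of protein-coding genes with a strong peak. In RefSeq promoters of GRCh38.p14, from 250 bases before to 50 after the start, 44 of the 50 genes were matched by symbol. GINS4, MCM4, MCM5, POLD3, RPA2 and RPA3 were not matched, and all of them had a strong peak. Their promoters were not searched, so the MCM5 word shown above is not counted here. Of the 44 matched genes, 14 (31.8%) held an E2F type word, beside 310 of 15330 protein-coding genes (2.02%). They were CDC6, GINS1, GMNN, MCM2, MCM3, MCM6, MCM7, MCM8, POLA1, POLA2, POLE, POLE2, TIPIN and TOPBP1. Strong ZBTB11 peaks were present at 11 of these 14 (median −log10 p 6.18) and at 20 of the 30 without the word (median 8.35). The same split over protein-coding genes gave 67.7% and 48.7%.

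Other words differed less. The consensus was in the promoters of 12 of the 44 genes (27.3%), beside 30.2%, and CCAAT, the site of NF-Y, in 26 (59.1%), beside 42.5%. The 12 genes with the consensus included RFC2, whose promoter held CAGGAAG although its summit had no consensus within 50 bp. The NRF1 type GCATGCGC was in 4 (9.09%), beside 4.89%. A gene can have several promoters, and the consensus was in 12 of the 41 promoters of strong genes (29.3%), beside 31.5% of the promoters of strong protein-coding genes. It was in 0 of the 16 promoters of the other replication genes, beside 16.2% of those of the other protein-coding genes. With so few promoters this difference was not tested. At the summits of the 13 genes that were not strong, 1 held the consensus (7.69%, interval 1.37% to 33.3%), beside 5.15% of such protein-coding genes. That gene was PCNA, with CAGGAAG.

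**Figure D4:**
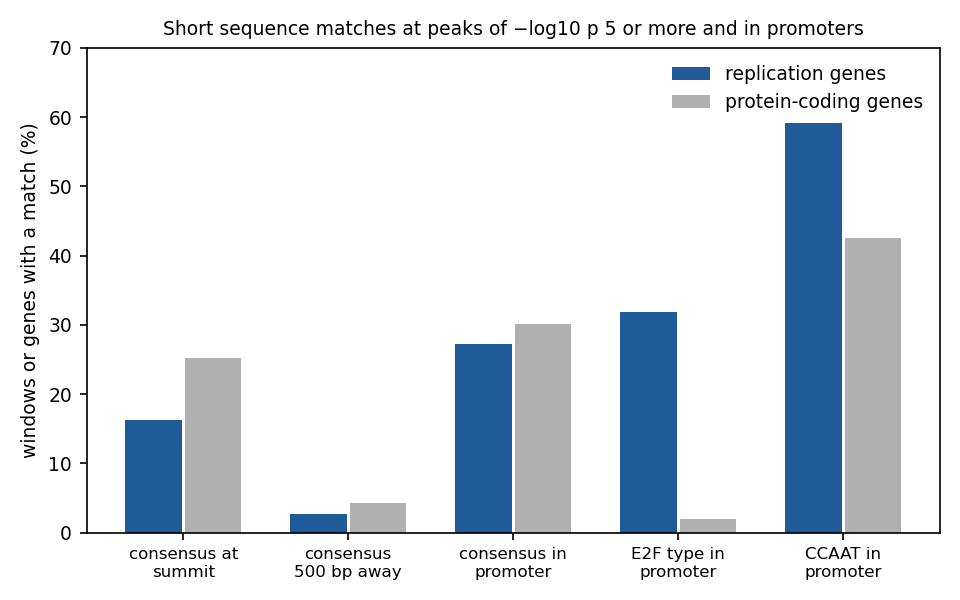
Share with a match on either strand (vertical axis, %) in windows of 50 bp each side of strong summits, in equal windows 500 bp away, and in RefSeq promoters counted by gene, for replication genes and protein-coding genes. The E2F type is at 31.8% against 2.02% in promoters, whereas the consensus at the summit is at 16.2% against 25.2%.

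The IgG library served as control on chromosomes 1, 10 and 21, where 4 of the 50 genes lie. An IgG peak of any p was within 3 kb of a start in 3 of 4, beside 68.7% of the 3011 protein-coding genes there, and one of −log10 p 5 or more in 0 of 4, beside 1.99%. At ORC1 the ZBTB11 summit had 30 fragments (20.2 to 42.8, 7.08-fold enrichment, chr1:52403885-52404989) and the strongest IgG peak 10 (4.80 to 18.4), and the peaks did not overlap. At RPA2 the values were 21 (13.0 to 32.1, 6.24-fold, chr1:27914179-27915312) and 10 (4.80 to 18.4), and the IgG peak lay within the ZBTB11 peak (−log10 p 4.83 for IgG). An IgG peak of at least 10 fragments was found in 2.82% of the protein-coding genes of these chromosomes. All 4 replication genes had a strong ZBTB11 peak, and among the protein-coding genes with one the share with at least 10 IgG fragments was 5.17% and that with any IgG peak 84.8%. At MCM10 the ZBTB11 peak had 12 fragments (6.20 to 20.96, 5.49-fold, chr10:13161086-13161592) and the IgG peak, at another start of the gene, had 4 (1.09 to 10.2). At CDC7 the ZBTB11 peak had 11 and no IgG peak was listed. The counting intervals were apart for ORC1 and overlapped for RPA2 and MCM10. The libraries were not scaled to each other, with genome-wide backgrounds of 1.35 (ZBTB11) and 1.55 fragments (IgG). For the other 46 genes the IgG list gives no control.

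**Figure D5:**
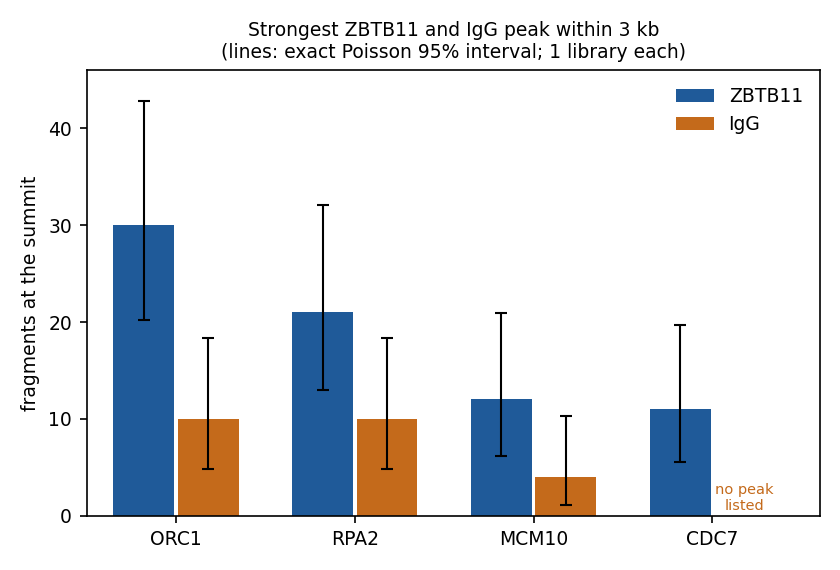
Fragments at the summit (vertical axis) of the strongest ZBTB11 and IgG peak within 3 kb of the 4 replication genes on chromosomes 1, 10 and 21, with exact Poisson 95% intervals as lines. ORC1 stands at 30 against 10 with separate intervals, those of RPA2 and MCM10 overlap, and CDC7 has no IgG peak listed.

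Further genes of the pathway, 42 in all and none of them among the 50, gave similar values. A strong peak was present in 32 (76.2%, Wilson 95% interval 61.5% to 86.5%), beside 46.9% of protein-coding genes. The median −log10 p was 10.8, beside 4.54. These genes too were chosen with earlier results of these data known. Of 26 other replication genes 21 were strong (interval 62.1% to 91.5%). Of 6 genes for nucleotide supply 4 were strong (30.0% to 90.3%), and of 10 for S phase control 7 (39.7% to 89.2%). The intervals for nucleotide supply and S phase control include the protein-coding share. MTBP, a partner of the origin firing factor TICRR, was the strongest with 487 fragments (−log10 p 420, rank 95), above RFC2. A coding start of MRPL13 lies on the opposite strand within 1 kb of an MTBP start. The peak therefore cannot be assigned to either gene. The next were SSRP1, of the FACT histone chaperone, with 130 fragments (124), and MCMBP, an MCM binding protein, with 97 (72.1). At the low end, thymidine kinase TK1 had no peak within 3 kb, cyclin CCNA2 had 5 fragments (2.57) and RNASEH2A, of the enzyme that removes RNA from DNA, had 7 (3.05).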

How the data were processed

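Per the labels, ChIP-seq used 1 library each for ZBTB11, IgG and Input. According to the methods, the authors mapped paired reads with BWA (hg38) and ran MACS once per antibody at p below 0.05. The MACS release is uncertain, since the file layout belongs to later releases. The authors deposited, for each peak, the fold enrichment (a ratio to local background), the −log10 p-value and the −log10 q-value; the deposited score equalled 10 times the −log10 p and was not used. There was 1 library per antibody, and nothing was pooled. Fragments at the summit were solved from fold and p, with a Poisson model whose fold has a pseudocount of 1, and 100% of peaks were solved within 0.001. Read totals per library were not used here. The functions were tested on simulated data. Only peaks of the autosomes, X and Y entered (346891 ZBTB11, 26712 IgG). Python 3.11.15, NumPy 2.4.6, SciPy 1.17.1 and pandas 2.3.3 were used. Shares carry Wilson and fragments exact Poisson 95% intervals. Values are given in most detail for the 10 strongest genes, the strongest and weakest of each class, the genes on chromosomes 1, 10 and 21 and those nearest to the threshold, p 1e-05. Of the further genes the 3 strongest and weakest are named, without intervals on fragments. The members and lists were chosen with earlier results of these data known.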

Additional observations from a re-analysis of the deposited data

How the results depend on the processing

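No paired analysis was possible because with 1 library per antibody there were no replicates to pair. Of 61 values recomputed for 11 results, 49 stayed within 1.5 times of the value reported, and 4 of the 61 came from alternatives added once the values had been seen. Counting peaks for the nearest start only left 3 strong licensing genes. A q-value of 0.05 or less gave 4 clamp and loader genes. At the p limit of 1e-20 there were 17 strong genes (beside 21.6% of protein-coding genes). They were 3 licensing, 4 helicase, 4 activation and other MCM, 2 polymerase, 2 clamp and loader, and 2 fork genes. Summit windows of 25 and 100 bp to each side gave 3 and 13 genes with the consensus (beside 12.7% and 38.6%). Of the 4 genes with IgG data, 1 had an IgG peak within 1 kb (beside 52.1% of protein-coding genes), 0 had one at the p limit of 1e-05 (beside 1.99%) and 1 had one overlapping the ZBTB11 peak (beside 24.3%). The cause was not tested, apart from the stricter or wider limits themselves. Fragment counts near 10 limit the order of the weaker genes.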
